A study of Mus musculus with 8 samples.

Results

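The genes described here are 8 genes that mark cortical thymic epithelial cells: Foxn1, Psmb11, Prss16, Dll4, Ly75, Ctsl, Cd83 and Enpep. They were chosen by name from what is known of the thymic cortex, and every probe whose transcript accession belongs to one of them was read. They are 8 of the 22907 genes that the array named, and they have 9 of its 56605 probes. Each gene has a single probe except Enpep, which has a pair.

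Gene expression was measured on one-colour Agilent arrays in TEC100.4, an immortalized mouse line whose labelled origin is the cortical thymic epithelium. The gene Gtf2i encodes the transcription factor TFII-I, and the cells carried a mutant form of it that doxycycline induces. The study asked how the mutant protein alters the transcriptome. The 4 groups were the β line without doxycycline, the β line with doxycycline, the δ line without it and the δ line with it, named for the isoform of the mutant, and doxycycline was given for 24 h. Each group had 2 arrays, 8 in all. The untreated samples carry the same mutant construct by title, while their genotype label names the wild type protein, and groups were taken from the titles. A line given doxycycline without a mutant was not analysed here, so the drug and the induced protein cannot be told apart. Each isoform is represented by 1 line, so isoform and line cannot be told apart either. The labels do not say whether the paired arrays of a group stem from separate cultures, and p-values therefore reflect the spread between the arrays at hand, possibly a technical one.

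Cortical thymic epithelial cells attract progenitors of T cells to the thymus, commit them to the T lineage and test their receptors against self peptides. The transcription factor FOXN1 sets up this program and its loss leaves nude mice without a thymus. The Notch ligand DLL4 directs incoming progenitors to the T cell fate. Positive selection of thymocytes then relies on unusual peptides, which are cut for MHC class I by a proteasome with the cortex-specific subunit encoded by Psmb11, and for MHC class II by cathepsin L and the thymus-specific serine protease encoded by Prss16. CD205, encoded by Ly75, and the aminopeptidase Ly51, encoded by Enpep, are the surface proteins by which these cells are usually sorted. CD83 stabilises MHC class II on the cell surface.

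By the flag of the scanner software, 43424 to 45156 probes were well above background on an array of treated cells and 39578 to 40759 on one of untreated cells. The arrays of treated cells also had darker negative control spots, with medians between 4.10 and 4.49 units of processed intensity against 6.93 to 9.20 without doxycycline. All arrays lay on 1 slide, with treated samples in its first row and untreated samples in its second, so the row cannot be told apart from treatment. In both rows the β arrays lay in columns 1 and 2 and the δ arrays in columns 3 and 4. The column therefore cannot be told apart from the line. The untreated δ array called replicate 1 stood apart: 117 of its 1008 tiles of 8 by 8 spots deviated by over 0.3 (log2) from the other arrays, against 1 to 7 tiles on each other array. The brightest probe of Gtf2i did not change with doxycycline by the test, at 0.11 ± 0.12 (log2 difference ± SE) in the β line and 0.09 ± 0.12 in the δ line (limma, adjusted p = 0.716 and 0.725 over all genes). A dimmer Gtf2i probe, A_55_P2040907, read 1.31 ± 0.18 higher with doxycycline in the β line (adjusted p = 0.0599 over all probes) and 0.14 ± 0.18 higher in the δ line. Between the lines the brightest probe read 0.67 higher in the δ line without doxycycline and 0.65 with it (limma, adjusted p = 0.0195 and 0.021 over all genes). Probe A_52_P442585 differed by 0.61 and 0.51, and A_55_P2040907 by 0.54 and -0.64.

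Promoters are shown for Foxn1 itself and for Psmb11 and Dll4, which FOXN1 is known to activate, because these genes differed in how often their probes were well above background. Each is the stretch of 250 bases before the start site on the gene's own strand, 5′ to 3′, from RefSeq build GRCm38.p6. Foxn1 is read from chr11:78386609-78386858 on the minus strand, Psmb11 from chr14:54625060-54625309 on the plus strand and Dll4 from chr2:119325534-119325783 on the plus strand. Capitals mark the letters GACGC or their reverse complement GCGTC, the core that FOXN1 binds.
Foxn1: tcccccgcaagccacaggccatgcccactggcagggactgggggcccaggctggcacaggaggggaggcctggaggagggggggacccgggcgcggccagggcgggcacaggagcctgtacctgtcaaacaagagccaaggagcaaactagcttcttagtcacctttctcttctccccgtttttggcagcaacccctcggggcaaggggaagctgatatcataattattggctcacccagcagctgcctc
Psmb11: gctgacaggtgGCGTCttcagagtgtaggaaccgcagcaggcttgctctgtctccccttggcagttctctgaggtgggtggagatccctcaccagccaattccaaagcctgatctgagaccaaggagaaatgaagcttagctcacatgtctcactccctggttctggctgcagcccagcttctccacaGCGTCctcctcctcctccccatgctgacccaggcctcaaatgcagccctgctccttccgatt
Dll4: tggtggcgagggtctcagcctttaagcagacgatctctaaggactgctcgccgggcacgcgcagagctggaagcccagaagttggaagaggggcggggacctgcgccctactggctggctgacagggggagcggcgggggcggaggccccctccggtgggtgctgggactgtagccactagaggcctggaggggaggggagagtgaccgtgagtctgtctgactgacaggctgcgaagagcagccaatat
The core occurred 2 times in the Psmb11 stretch, with first bases 239 and 62 before the start site and both on the opposite strand, and 0 times in those of Foxn1 and Dll4. Of all 27025 promoters of the same length, 22.6% held it. Among the other members with a promoter sequence, Enpep held it 1 time and Ly75 and Ctsl 0 times. The E-box CACGTG, to which TFII-I can bind, was found 1 time in the stretch of Ctsl and in none of the other 5, against 6.05% of all promoters. The start site that the table gives for Ctsl may belong to a downstream transcript start, so its stretch may not be the main promoter of the gene. These matches describe letters in a window and say nothing of binding in these cells.

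The cells showed only part of the cortical program at the level of detection. Ctsl, Prss16 and Foxn1 were well above background on all 8 arrays. Dll4 and Ly75 were so on 7 arrays each. Psmb11, Cd83 and both probes of Enpep were well above background on none. Of the 9 probes, 4 were detected on both arrays of the β line without doxycycline and 5 with it, and the same numbers, 4 and 5, held for the δ line without and with it. The added probe was Dll4 in the β line and Ly75 in the δ line. Dll4 failed at an intensity of 41.1 on an untreated β array and passed at 40.5 on a treated one, where the background was darker. Ly75 failed only on the untreated δ array replicate 1, with its spot in a tile that read 1.31 too dark. The added probes are therefore not read as genes gained with doxycycline. Genes that mark other cell types passed the same flag on all 8 arrays: 6 of 12 thymocyte genes, 6 of 11 dendritic cell and macrophage genes, 3 of 5 B cell genes and 4 of 6 endothelial genes, beside 3 of the 8 cortical genes. So did 8 of 11 medullary thymic epithelial genes, 7 of 12 general epithelial genes and 10 of 11 fibroblast and mesenchyme genes. Of all 22879 genes named on the array with complete values, 16784 (73.4%) did.

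**Figure D1:**
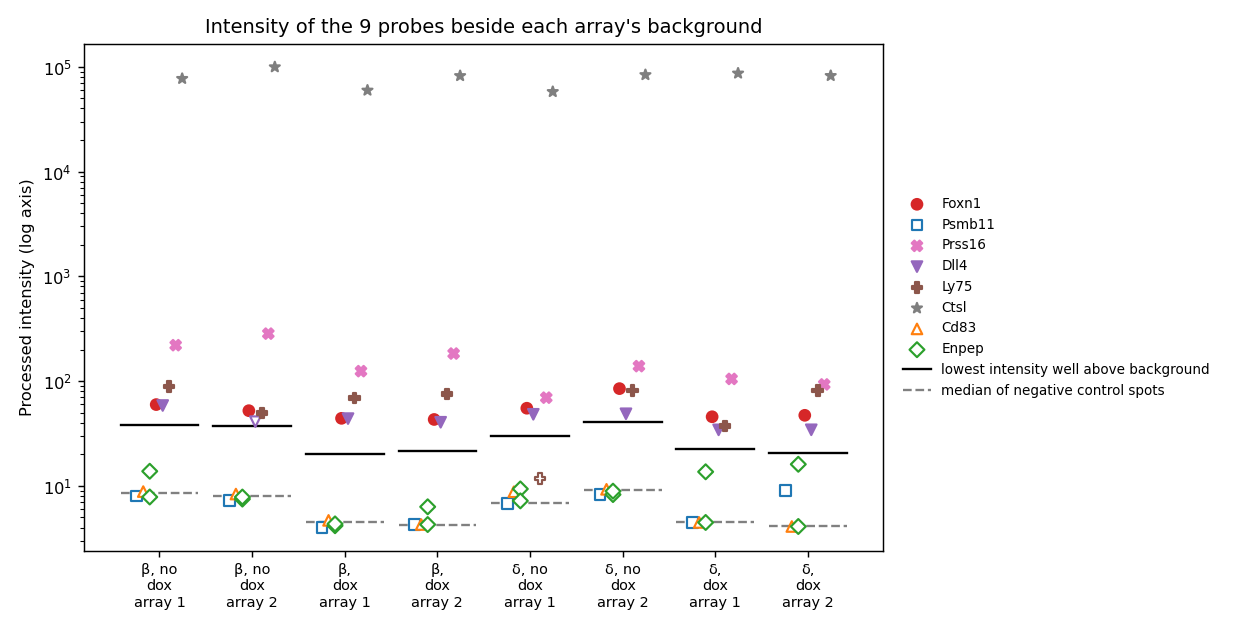
Processed intensity of the 9 probes on each of the 8 arrays, on a log axis, with filled symbols where the probe was well above background and open symbols where it was not. Solid lines give each array's lowest intensity among probes well above background (20.3 to 41.0) and dashed lines the median of its negative control spots (4.10 to 9.20); Psmb11, Cd83 and Enpep lie under the solid line on every array, and Ctsl far above it.

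Psmb11 encodes the β5t subunit of the thymoproteasome, which is otherwise found in hardly any cell type. Its probe read 8.03 and 7.29 in the β line without doxycycline and 4.0 and 4.28 with it. In the δ line it read 6.76 and 8.33 without doxycycline and 4.48 and 9.02 with it. All 8 values lay below the lowest intensity well above background on their own array, which was between 20.3 and 41.0, and 7 of them were no higher than the 95th percentile of that array's negative controls. The exception was the second treated δ array, at 9.02. With no group well above background, no fold was taken.

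Cd83 read 8.83 and 8.36 in the untreated β line and 4.69 and 4.28 in the treated one. It read 8.80 and 9.28 in the untreated δ line and 4.48 and 4.10 in the treated one. These values moved with the darker background of the treated arrays, whose negative control medians were 4.10 to 4.49 against 6.93 to 9.20. With no filter on dim probes, the fit called Cd83 lower with doxycycline in the δ line (log2 difference -1.04 ± 0.19 SE, limma adjusted p = 0.0496), together with 803 of 22879 genes in all. With the filter no such value is given, since Cd83 was not well above background in either group.

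Enpep, the aminopeptidase known as Ly51 or BP-1, was measured by a pair of probes. Probe A_51_P161830 read between 4.10 and 9.36 on all arrays, and like the negative controls it was lower on treated than on untreated arrays. Probe A_66_P103820 read 13.8 and 7.83 in the untreated β line, 4.34 and 6.32 in the treated β line, 7.20 and 8.91 in the untreated δ line and 13.6 and 16.1 in the treated δ line. On 4 arrays, both treated δ arrays, untreated β replicate 1 and treated β replicate 2, this exceeded the 95th percentile of the negative controls, but none was well above background. The other probe did so on no array, and it read 4.48 and 4.10 on the treated δ arrays. Its spot on the untreated δ array replicate 1, at 9.36, lay in a tile that read 0.58 too dark.

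Foxn1, the master regulator of thymic epithelium, gave a dim signal on all arrays. Its processed intensity was 59.7 and 52.2 in the untreated β line and 44.2 and 43.1 in the treated one. In the δ line it was 55.1 and 84.8 without doxycycline and 45.7 and 47.2 with it. On every array this lay above the lowest intensity well above background of that array, which was 29.9 to 41.0 on untreated and 20.3 to 22.5 on treated arrays.

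Levels are given from here on as log2 intensity minus the array's 75th percentile, as mean ± SD over 2 arrays, and levels are compared only within a probe. Whether the arrays of compared groups overlap is stated as a description only. With 2 arrays a group, a lack of overlap arises easily by chance, and its share over all genes is not given. Differences were tested with limma over all 19019 genes kept, at an adjusted p under 0.05. Of these genes 0.247% passed with doxycycline in the β line and 0.0736% in the δ line, 13.2% between the lines without doxycycline and 15.2% with it, and 0.00526% for the difference between the doxycycline responses. Foxn1 was highest in the untreated δ line at -4.31 ± 0.11. It was -4.66 ± 0.20 in the treated β line, -4.72 ± 0.22 in the untreated β line and -4.83 ± 0.06 in the treated δ line. The lower 3 groups overlapped in their arrays. The untreated δ arrays stood above all others as measured, 1 of them from a spot in a tile that read 0.35 too bright.

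With doxycycline in the δ line Foxn1 differed by -0.53 ± 0.15 (log2 difference ± SE, 95% interval -0.89 to -0.16), and the treated arrays lay below the untreated ones. This did not pass the test over all 19019 genes (limma, adjusted p = 0.257). In the β line the difference was 0.05 ± 0.15 (interval -0.32 to 0.42, adjusted p = 0.915). The difference between those responses was -0.58 ± 0.21 (adjusted p = 0.649). Between the untreated lines Foxn1 read 0.41 ± 0.15 higher in the δ line (interval 0.04 to 0.78, adjusted p = 0.140), and between the treated lines it differed by -0.17 ± 0.15 (adjusted p = 0.509). The Foxn1 spot on the untreated δ array replicate 1 lay in a tile that read 0.35 too bright. Without that spot, which leaves 1 untreated δ array, the δ line difference with doxycycline was -0.60. Over the 18 alternatives run, this difference lay between -0.60 and -0.23. The difference between the untreated lines lay between 0.20 and 0.57.

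The related forkhead genes were detected on all 8 arrays. Foxn3, a transcriptional repressor, was higher in the δ line, by 0.65 without doxycycline and 0.69 with it (limma, adjusted p = 0.0103 and 0.00902). As a mean over its probes the differences were 0.33 and 0.22 and did not pass (adjusted p = 0.0641 and 0.156). Foxn2 differed between the lines by 0.0025 without doxycycline and by 0.20 with it (adjusted p = 0.992 and 0.325). A list of 15 genes held regulators of thymus and parathyroid development and paralogs of Foxn1. Of these, 14 were tested and 2 passed between lines in each state, Foxn3 and Bmp4, both higher in the δ line. Bmp4, a secreted signal that raises Foxn1 expression in the thymus, was 0.75 and 0.82 higher (adjusted p = 0.0142 and 0.0107). Tbx1 was detected on no array. The median difference over the 14 genes was 0.10 without doxycycline and 0.01 with it, against 0.02 and -0.01 over all genes. None of the 14 passed with doxycycline in either line.

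Prss16 was the one member that passed a test, and it did so between the lines. It encodes the thymus-specific serine protease that trims peptides for MHC class II. Its processed intensity was 220 and 284 in the untreated β line, 125 and 183 in the treated β line, 69.5 and 139 in the untreated δ line and 105 and 93.0 in the treated δ line. As levels, the β line stood at -2.55 ± 0.18 without doxycycline and -2.87 ± 0.22 with it, and the δ line at -3.78 ± 0.38 and -3.74 ± 0.10. All 4 arrays of the β line were above all 4 of the δ line. The order of the groups was untreated β, treated β, treated δ and untreated δ, and the pair of δ groups overlapped.

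Without doxycycline Prss16 was 2.34-fold lower in the δ line (log2 difference -1.23 ± 0.21 SE, 95% interval -1.74 to -0.71, limma adjusted p = 0.0151). With doxycycline it was 1.83-fold lower (-0.87 ± 0.21, interval -1.38 to -0.36, adjusted p = 0.0433). The count of members that passed was 1 of 5 tested in each state, beside 13.2% and 15.2% of all genes, which with 5 genes is near the background. The call was lost with only the 4 untreated arrays in the fit (adjusted p = 0.0920) and, at -1.10, without untreated β replicate 2 (adjusted p = 0.0688). With doxycycline it was lost without either treated array of either line, with adjusted p from 0.0919 to 0.205, and without either untreated β array (0.0586), and also with quantile normalization, median centring or no filter on dim probes (0.0608 to 0.0855).

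Doxycycline changed Prss16 by -0.32 ± 0.21 in the β line (interval -0.83 to 0.20, adjusted p = 0.491) and by 0.04 ± 0.21 in the δ line (interval -0.47 to 0.55, adjusted p = 0.942). The treated and untreated β arrays did not overlap, and the δ arrays did. The difference between the responses was 0.36 ± 0.30 (adjusted p = 0.701). On the untreated δ array replicate 1 the Prss16 spot lay in a tile that read 0.26 too dark, just inside the limit of 0.3, and its intensity of 69.5 was the lowest of the 8. Without that array the untreated lines differed by -0.96 (adjusted p = 0.0299).

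Ctsl, cathepsin L, the endosomal protease that degrades the invariant chain in the cortex, was the bright member. Its probe, printed at 10 positions, read 77000 and 99445 in the untreated β line and 59549 and 81964 in the treated one. In the δ line it read 57728 and 83719 without doxycycline and 86637 and 82090 with it. No spot was saturated. Relative to each array's 75th percentile the levels were 5.90 ± 0.18 and 5.98 ± 0.16 in the β line without and with doxycycline, and 5.68 ± 0.05 and 5.996 ± 0.03 in the δ line. The untreated δ line was lowest, and the other 3 groups overlapped.

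Ctsl read 0.31 ± 0.13 higher with doxycycline in the δ line (interval 0.00 to 0.62), a 1.24-fold difference between groups that did not overlap. It did not pass over all genes (limma, adjusted p = 0.331). In the β line the difference was 0.08 ± 0.13 (interval -0.22 to 0.39, adjusted p = 0.799). The δ line differed from the β line by -0.21 ± 0.13 without doxycycline and by 0.01 ± 0.13 with it (adjusted p = 0.327 and 0.957). The intervals leave changes of Ctsl up to 1.31-fold in the β line and 1.54-fold in the δ line within reach. Of its 10 spots, 2 on the untreated δ array replicate 1 lay in dark tiles, and both had been flagged by the scanner software and left out.

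The proteases around Prss16 and Ctsl differed between the lines in both directions. Of 16 lysosomal proteases and inhibitors, 14 were tested, and in each state 2 were higher and 2 lower in the δ line. Ctsf, cathepsin F, was 0.83 higher without doxycycline and 0.47 with it (limma, adjusted p = 0.00531 and 0.0380). Ctsa, the protective protein of lysosomal galactosidase, was 0.55 and 0.69 higher (adjusted p = 0.0387 and 0.0181). Ctsh, cathepsin H, an aminopeptidase, differed by -1.25 and -0.94 (adjusted p = 0.00858 and 0.0227), and by -0.56 and -0.84 as a mean over its probes, which did not pass (adjusted p = 0.163 and 0.0592). Cstb, the cytosolic inhibitor stefin B, differed by -0.68 and -0.51 (adjusted p = 0.0131 and 0.0333). The nearest relatives of Prss16, Prcp and Dpp7, were on all 8 arrays and differed by 0.35 and 0.16 without doxycycline (adjusted p = 0.244 and 0.450). Ctsb, cathepsin B, another cysteine protease of the lysosome, differed by 0.33 (adjusted p = 0.187). Ctss, the cathepsin that takes the place of cathepsin L in dendritic cells, was detected on 2 arrays and not tested, and Ctse on none. The median over the 14 was 0.16 without doxycycline and 0.03 with it. No gene of this list passed with doxycycline.

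Other proteasome subunits were well above background on all 8 arrays, and Psmb11 was so on none. All 12 of the 13 listed subunits and activators that had a usable probe passed this flag, including Psmb5, whose place in the complex the β5t subunit takes in the cortex. Psmb5 differed between the lines by 0.26 without doxycycline and 0.03 with it (limma, adjusted p = 0.262 and 0.896). The immunoproteasome subunit Psmb8 was lower in the δ line with doxycycline, at -0.68 (adjusted p = 0.0295), and -0.40 without it (adjusted p = 0.136). Psmb3, a structural subunit of the inner ring, was -0.42 with doxycycline (adjusted p = 0.0400). These were the 2 of 12 that passed between the treated lines, 0 of 12 passed between the untreated lines, and 0 passed with doxycycline. The medians between lines were -0.03 and 0.08.

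Dll4, the Notch ligand through which the cortex commits progenitors to the T lineage, read close to the limit of detection. Its intensity was 58.5 and 41.1 in the untreated β line and 43.9 and 40.5 in the treated one. It was 48.3 and 48.8 in the untreated δ line and 34.3 and 34.3 in the treated one. The second untreated β array, at 41.1, was not well above background. Levels were highest in the treated β line at -4.71 ± 0.25, then -4.80 ± 0.32 in the untreated δ line, -4.91 ± 0.44 in the untreated β line and -5.27 ± 0.03 in the treated δ line. The upper 3 groups overlapped, and the treated δ arrays lay below all others.

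Dll4 differed by -0.47 ± 0.26 with doxycycline in the δ line (interval -1.09 to 0.16, limma adjusted p = 0.412), with no overlap of the arrays. In the β line the difference was 0.19 ± 0.26 (interval -0.43 to 0.82, adjusted p = 0.770). The δ line differed from the β line by 0.11 ± 0.26 without doxycycline and by -0.55 ± 0.26 with it (adjusted p = 0.824 and 0.199). None of these passed, and the difference between the responses, -0.66 ± 0.36, did not either (adjusted p = 0.665).

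The rest of the Notch pathway was measured with 19 genes, all detected on 8 arrays. No gene of the 19 passed with doxycycline in either line. Between the lines, 4 were higher and 1 lower in the δ line without doxycycline, and 4 were higher and 4 lower with it. Notch4, a receptor, was 1.08 and 1.05 higher (limma, adjusted p = 0.00470 and 0.00561), and Hey1, a target of Notch signalling, 0.96 and 0.94 higher (adjusted p = 0.00557 and 0.00660). Other targets in the list did not follow Hey1. Hes1 differed by -0.21 without doxycycline and -0.61 with it (limma, adjusted p = 0.265 and 0.0157). Nrarp differed by -0.41 and -0.33 (adjusted p = 0.0584 and 0.0919), and Heyl by 0.08 and -0.02 (adjusted p = 0.738 and 0.954). As a mean over its probes Notch4 read 0.27 and 0.54 higher and did not pass (adjusted p = 0.773 and 0.540). The ligand Jag2 differed by -0.93 and -0.75 (adjusted p = 0.00264 and 0.00624), and the receptor Notch1 by -0.81 with doxycycline (adjusted p = 0.0308). The ligands nearest to Dll4 in kind, Dll1 and Jag1, differed by -0.15 and -0.24 without doxycycline (adjusted p = 0.382 and 0.327). The medians over the 19 genes were -0.11 and -0.18.

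Ly75, which encodes the endocytic receptor CD205, varied more between arrays of a group than the other 4 tested members in 3 of the 4 groups, and least in the treated β line. Its intensity was 89.1 and 49.5 in the untreated β line and 69.2 and 75.2 in the treated one. It was 11.8 and 81.2 in the untreated δ line and 37.5 and 81.6 in the treated one. The value of 11.8 belongs to the array with the deviating tiles, where the spot lay in a tile that read 1.31 too dark, and it was the one array on which Ly75 was not well above background. Levels were -3.94 ± 0.09 in the treated β line, -4.47 ± 0.68 in the untreated β line, -4.58 ± 0.82 in the treated δ line and -5.45 ± 1.64 in the untreated δ line. The arrays of neighbouring groups in that order overlapped. Both treated β arrays lay above the treated δ arrays, though their nearest values, -3.9994 and -4.0003, were almost equal.

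No comparison of Ly75 passed. With doxycycline it differed by 0.53 ± 0.79 in the β line and 0.87 ± 0.79 in the δ line (limma, adjusted p = 0.799 and 0.596). Between the lines it differed by -0.98 ± 0.79 without doxycycline and -0.64 ± 0.79 with it (adjusted p = 0.465 and 0.642). Without the spot in the dark tile the doxycycline difference in the δ line turned to -0.29 and the untreated line difference to 0.18. The interval of the β line effect, -1.41 to 2.46, shows how little this probe resolves. Of the family to which CD205 belongs, Mrc2 was detected on all 8 arrays and differed between the untreated lines by 0.25 (adjusted p = 0.372), Mrc1 was detected on 3 arrays and Pla2r1 on none. Of the M1 aminopeptidases to which Enpep belongs, 7 of 8 were detected on all 8 arrays and 0 passed any comparison. Anpep and Erap1 among them differed between the untreated lines by 0.06 and -0.37 (adjusted p = 0.871 and 0.153).

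**Figure D2:**
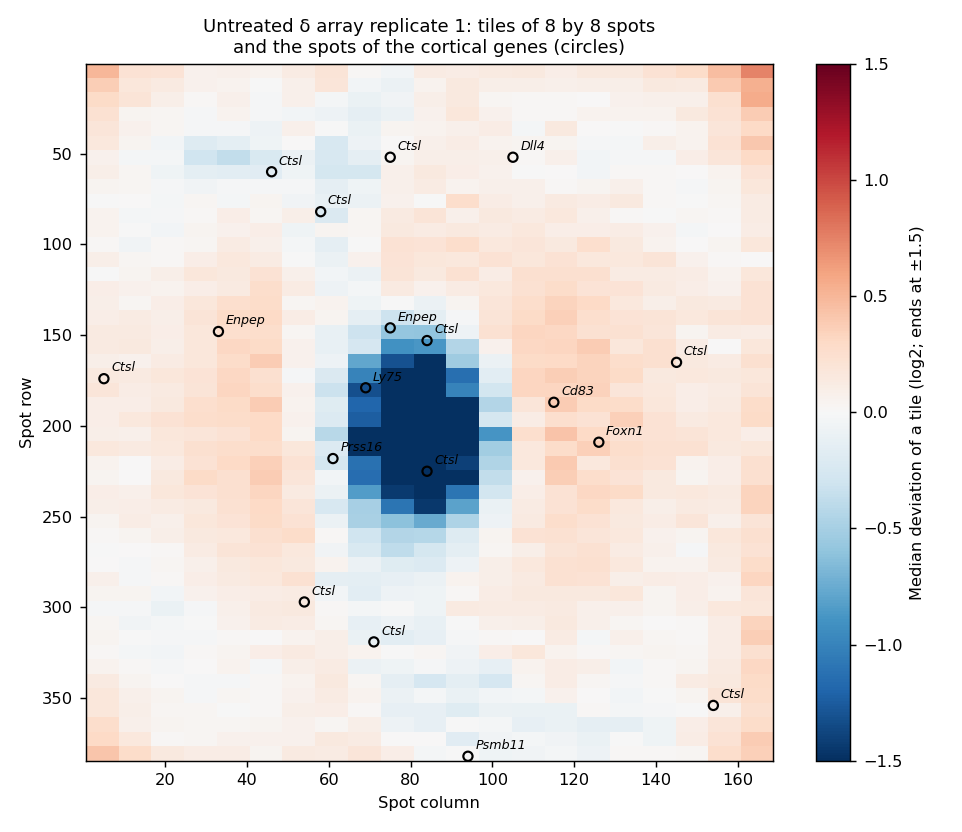
Median deviation of each tile of 8 by 8 spots on the untreated δ array replicate 1 from the other 7 arrays (colour, log2), by spot row and column, with circles at the spots of the 8 genes. The Ly75 spot, 2 of the 10 Ctsl spots and 1 of the 2 Enpep spots lay in dark tiles, Prss16 in a tile just inside the limit, and Foxn1 and Cd83 in slightly bright tiles.

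CD83 acts on MHC class II by opposing the ubiquitin ligase MARCH8. Marchf8 and H2-Ab1 were detected on all 8 arrays and differed between the untreated lines by 0.08 and 0.13 (limma, adjusted p = 0.688 and 0.617). Of 14 genes of the MHC class II route, 13 were tested. Cd74, the invariant chain on which cathepsin L acts, was lower in the δ line, at -1.27 without doxycycline and -1.75 with it (adjusted p = 0.00422 and 0.00139). Rfxank, a subunit of the complex that binds MHC class II promoters, was 0.40 and 0.63 higher (adjusted p = 0.0371 and 0.00834). H2-Aa, detected on 7 arrays, was -0.48 without doxycycline (adjusted p = 0.0492), and -0.13 with normexp background correction (adjusted p = 0.526). Without doxycycline 1 gene was higher and 2 were lower, with it 1 was higher and 1 lower, and none passed with doxycycline in either line. The medians between lines were 0.08 and -0.12.

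**Figure D3:**
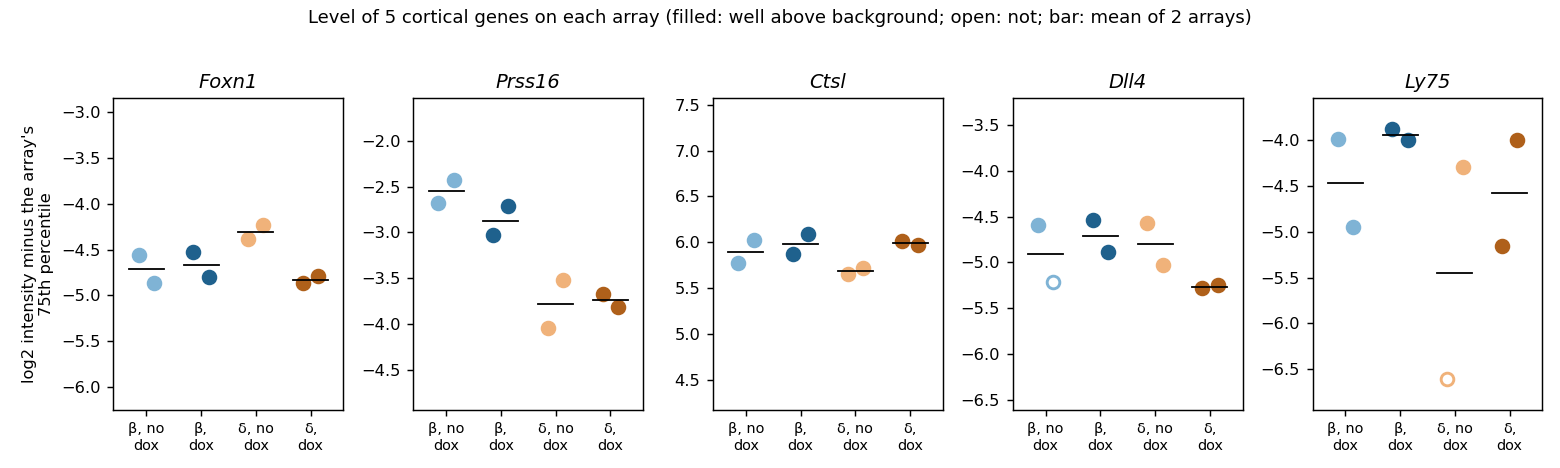
Level of the 5 members kept for testing on each of the 8 arrays, as log2 intensity minus the array's 75th percentile, with filled points well above background, open points not, and a bar at the mean of 2 arrays; each panel spans the same log2 range. Prss16 separates the β arrays from the δ arrays (-2.55 and -2.87 against -3.78 and -3.74), and the open Ly75 point is the spot in the dark tile.

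Set side by side, doxycycline moved none of the 5 tested members past the threshold in either line. A count of 0 of 5 is near the background of 0.247% in the β line and 0.0736% in the δ line. At an unadjusted p under 0.05, 0 of 5 members passed in the β line, where 18.2% of all genes did, and 2 of 5, Foxn1 and Ctsl, in the δ line, where 15.0% did. The median difference of the 5 members was 0.08 in the β line and 0.04 in the δ line, against 0.03 and 0.0004 over all genes. For the difference between the responses 0 of 5 passed, where 1 of 19019 genes (0.00526%) did, and 1 of 5, Foxn1, had an unadjusted p under 0.05, as did 7.52% of all genes. Between the lines 1 of 5 passed in each state and the medians were -0.21 and -0.55, against 0.02 and -0.01. The medians that involve the untreated δ line include Ly75 with its spot in the dark tile. Without that spot Ly75 read 0.18 between the untreated lines and -0.29 with doxycycline in the δ line. The sign of the median in both of these comparisons depends on that spot.

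The dim members were also dim among all the genes tested. Foxn1, Dll4 and Ly75 had mean levels among the 3804 dimmest of the tested genes, those with levels up to -3.61. Over these dim genes the median difference with doxycycline was 0.17 in the β line and 0.05 in the δ line, and -0.11 between the treated lines. The part of the background in the values of these 3 genes was not tested.

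**Figure D4:**
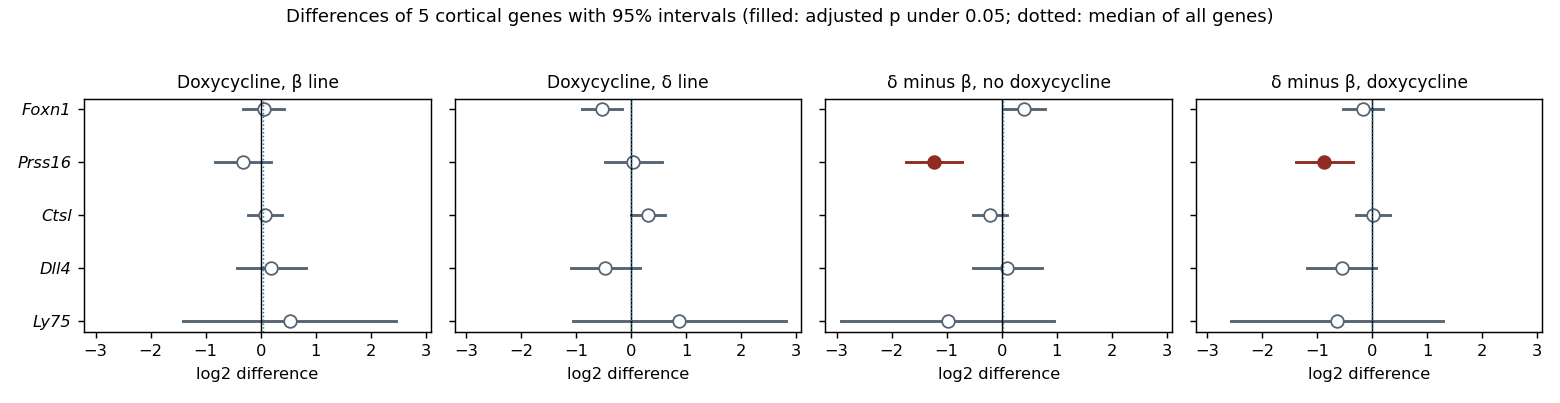
Log2 difference of the 5 tested members in 4 comparisons, with 95% intervals from limma; filled points have an adjusted p under 0.05 and the dotted line is the median of all genes. Prss16 is the one filled gene, at -1.23 and -0.87 between the lines, and the Ly75 intervals are the widest.

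Other genes known from the cortex were mostly detected, as were most genes on the array. Of 12 further genes known from cortical epithelium, 11 were well above background on all 8 arrays and 1, the cytokine Il7, on none. Over all genes named on the array with complete values, 73.4% were so on all 8 arrays. Between the lines 1 was higher and 3 lower in the δ line without doxycycline, and 1 higher and 1 lower with it. Krt8, a keratin of cortical epithelium, differed by -1.88 and -2.11 (limma, adjusted p = 0.000261 and 0.000191), and its partner Krt18 by -0.74 and -0.31 (adjusted p = 0.00368 and 0.0673). Cxcl12, a chemokine that holds progenitors in the cortex, was 0.83 and 0.55 higher (adjusted p = 0.00963 and 0.0366), and Kitl, the ligand of the receptor Kit, differed by -0.56 and -0.20 (adjusted p = 0.0264 and 0.280), the first falling to -0.16 as a mean over its probes (adjusted p = 0.358). None passed with doxycycline, where Ccl25, the chemokine that FOXN1 activates, read -0.53 in the β line and -0.22 in the δ line (adjusted p = 0.122 and 0.434). The medians between lines were -0.25 and -0.04.

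Some markers of other cell types also differed between the lines. Calls are counted here between the untreated lines, as log2 differences of the δ line from the β line. The summed level of 8 medullary thymic epithelial genes, each as intensity over the array's 75th percentile, was 33.9 to 39.4 in the untreated β line and 5.80 to 6.38 in the untreated δ line. Of the 8, 0 were called higher and 1 lower, Krt14, at -3.74 (limma, adjusted p = 6.27e-05). Krt14 was by far the brightest of the 8 in the untreated β line, at a log2 level of 5.01, so the sum mainly follows it. Over the 8 genes 3 differences lay above 0 and 5 below, with a median of -0.13. Of the 11 genes of that list 8 were on all 8 arrays, while Fezf2 and Cldn3 were detected on no array and Ccl21a on 1. The summed level of 9 general epithelial genes was 31.5 to 34.9 in the untreated β line and 12.3 to 13.2 in the untreated δ line, with 0 called higher and 3 lower, Krt8, Krt18 and Krt19, the last at -2.61 (limma, adjusted p = 0.000647). Of the 12 genes of that list Epcam was detected on 1 array and Cdh1 on 3. Of 11 fibroblast and mesenchyme genes 10 were on all 8 arrays, with sums of 727 to 768 and 706 to 762. Of these 11 genes 6 lay above 0 and 5 below, with a median of 0.01. The 3 called higher were Pdgfrb, Zeb1 and Col1a2, at 2.68, 1.08 and 0.62 (adjusted p = 8.88e-05, 0.00112 and 0.0164), and 0 were called lower. Thy1 read -3.86 and did not pass (adjusted p = 0.0609), and Col1a1 was -0.11 (adjusted p = 0.566) and with doxycycline -0.59 (adjusted p = 0.0228). Of thymocyte genes Ptprc, Cd3g and Rag1 were detected on no array. The sums of 9 thymocyte genes were 20.3 to 21.9 and 18.0 to 20.5, while 6 of the 9 lay above 0, with a median of 0.40. Tcf7 and Themis were called higher, at 0.90 and 1.69 (adjusted p = 0.00582 and 0.0335), and 0 were called lower. In the dendritic cell and macrophage list 0 of 7 were called higher and 2 lower, Cd68 at -0.71 and Lyz2 at -1.22 (adjusted p = 0.0471 and 0.0135). No B cell gene of 4 tested was called. Of the endothelial genes 3 lay above 0 and 2 below. Kdr, a receptor, was the 1 called, at 1.87 (adjusted p = 0.000167), while Tek read 1.99, Cdh5 -2.06 and Pecam1 -0.40 without passing (adjusted p = 0.0740, 0.315 and 0.240). Of these lists, 4 of 11 dendritic cell and macrophage genes, 1 of 5 B cell genes and 1 of 6 endothelial genes were on no array. The part of these differences in the values of Prss16 was not tested.

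**Figure D5:**
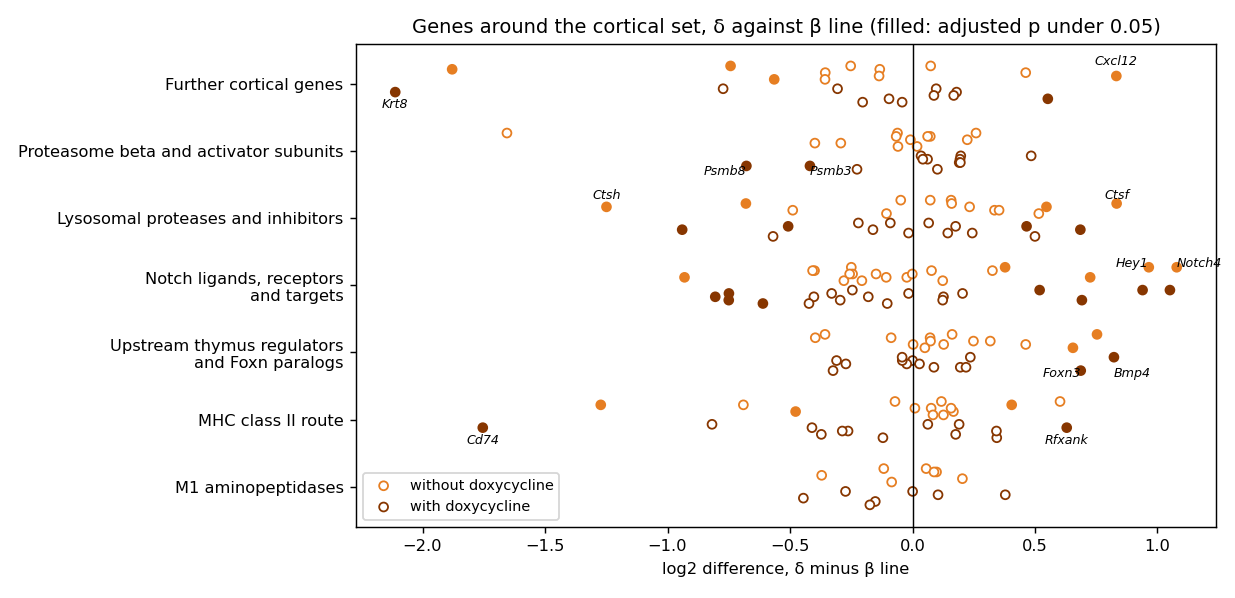
Log2 difference between the δ and β lines, without doxycycline (light) and with it (dark), for the tested genes of 7 lists around the cortical genes; filled points have a limma adjusted p under 0.05, and the outermost called genes are named. Krt8 and Cd74 lie lowest among the filled points, at -2.11 and -1.75, and Notch4 highest at 1.08.

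Across the 8 arrays, the genes most like a member were found for the 3 members detected on all of them, as a description with no test. Each was compared with 16783 genes. Genes named only by a locus, Rik or Gm number were left out of the nearest genes and of the counts below. By Pearson correlation over the 8 arrays, which share 4 groups and 1 slide, Foxn1 was nearest to Klk1b9 (r = 0.969), Ube2dnl2 (0.953) and Zfp385b (0.938), and 13 genes had r over 0.9. Prss16 was nearest to Myl7 (0.988), Flacc1 (0.987) and Pop5 (0.985), and 468 genes had r over 0.9. Ctsl was nearest to Rwdd4a (0.988), Eif1b (0.979) and Pgam5 (0.978), with 97 genes over 0.9. Without the untreated δ array replicate 1 these 9 correlations lay between 0.944 and 0.989.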

How the data were processed

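RNA of TEC100.4 cells, 200 ng of total RNA per sample per the labels, was labelled with Cy3 and hybridised to Agilent mouse 8 by 60K arrays. The deposited values are processed spot intensity values on a linear scale, background-subtracted and partly detrended. Per the file headers this was done with Feature Extraction 11.5.1.1 from Agilent (11.5.11 in the submitters' processing notes), with no scaling between arrays. The deposited detection and outlier flags are from the same software. The recorded root mean square of the multiplicative detrending fit was 0 on 3 treated arrays. It was between 0.0671 and 0.126 on the other 5, which include the treated β array replicate 1. Its part in the differences between treated and untreated arrays was not tested.

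From these, log2 intensity was averaged over unflagged spots of a probe, and the 75th percentile of the array was taken off. Names came from transcript accessions through a RefSeq gene table (GRCm38.p6), which named 32989 probes; the headers name another build, so coordinates are given only for the RefSeq promoters, in GRCm38.p6. A probe was kept if both arrays of some group had it well above background (27210), and the brightest stood for a gene (19019 genes, of which 5 are members). The 4 group means were fitted over the 8 arrays by limma (version 3.58.1, lmFit then eBayes, under R 4.3.3), which left 4 residual degrees of freedom, with Benjamini-Hochberg adjustment over all genes and a threshold of 0.05. The number of arrays limits the precision. The fit was tested on simulated data, with 100 genes changed by 1 and 100 by 2 (log2) in the treated β line. It recovered 63% of the changes of 1 and 90% of the changes of 2, so smaller changes can be missed. Over single probes in place of genes, Prss16 again passed between the lines (adjusted p = 0.0157 and 0.0457).

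The members and lists were chosen with earlier results of these data known. The text names every member, up to 4 genes of a list (those past the threshold with the largest change first), fixed paralogs of the members, and the 3 genes nearest to each member detected on all arrays. Genes named among markers of other cell types, and Ccl25, Il7, Tbx1 and other undetected genes, were added after their values were seen. The same holds for the Notch targets Hes1, Nrarp and Heyl. Alternatives covered background correction (normexp with an offset of 50, on median signals in place of mean signals), scaling, filters, probes per gene, arrays in the fit, replicate numbers, the deviating tiles, an intensity trend and each array left out. Leaving out spots in deviating tiles was chosen after seeing the data.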

Additional observations from a re-analysis of the deposited data

How the results depend on the processing

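Of the 5 members tested, Prss16 kept its direction between the lines in all 19 alternatives run in each state, from -1.49 to -0.85 without doxycycline and from -1.03 to -0.71 with it. Without doxycycline it kept the call in 17 of 19 alternatives. With doxycycline it kept it in 10 of 19. The count of members past the threshold between the untreated lines was 2 with quantile normalization, where Foxn1 joined (0.45, limma adjusted p = 0.0351), 0 with only the 4 arrays compared, and 0 to 2 with an array left out. The 2 arose without untreated δ replicate 2, where Ly75 passed at -2.14 (adjusted p = 0.0414) on the spot in the dark tile. Between the treated lines the count was 0 with quantile normalization, median centring and no filter on dim probes, and 0 to 1 with an array left out. For doxycycline in the δ line it was 1 of 8 members with no filter, which was Cd83, not well above background. For doxycycline in the β line and for the difference of the responses it was 0 in every alternative run.

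With the replicate block, 1 member passed between the lines in each state, Prss16 (adjusted p = 0.0152 and 0.0399). The replicate numbers are in accession order and only name the arrays. Deviations of equally numbered arrays correlated between -0.33 and 0.12 over pairs of groups, and the block changed no call of a member.

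Direction turned only in differences that did not pass. For doxycycline in the β line, Foxn1 was -0.0714 with quantile normalization and -0.10 to 0.21 with an array left out, Dll4 -0.12 to 0.51 and Ctsl -0.0428 to 0.21. For doxycycline in the δ line, Prss16 was -0.0927 with normexp and -0.23 to 0.31 with an array left out, and Ly75 -0.29 to 2.03 with an array left out and -0.29 without spots in deviating tiles. Between the untreated lines, Dll4 was -0.21 to 0.42 and Ly75 -2.14 to 0.18 with an array left out, and Ly75 0.18 without those spots. Between the treated lines, Ctsl was -0.0006 with quantile normalization and -0.10 to 0.12 with an array left out. For the difference of the responses, Ly75 was -0.25 with normexp, -0.82 without those spots and -0.82 to 1.503 with an array left out. The cause was not tested.

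With probes in deviating tiles removed, Foxn1, Ly75 and Ctsl had no value. Dim signals limit the rest: 3 of 8 members were well above background on no array, and the number of members detected on both arrays of a group stayed within 1.5 times of 4 or 5 under both other detection rules. Counts over all genes moved more. With doxycycline 47 genes passed in the β line, 0 to 333 in the alternatives, and 14 in the δ line, 1 to 1621. Between the lines 2512 passed without doxycycline, 716 with only the 4 arrays compared and 1462 at the lowest with an array left out, and 2897 with it, 697 at the lowest. For the difference of the responses 1 gene passed, 0 to 1056 in the alternatives. Of the list genes named as called, none reversed; H2-Aa kept its call in 4 of 18 alternatives, Kitl in 7, Ctsa without doxycycline in 8, and Psmb3 with and Rfxank without doxycycline in 9 of 19.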
